A study of Mus musculus with 6 samples.

Results

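Solute carrier (Slc) genes with a clear signal were followed in mouse optic fissure at E11.5. They were selected on measured intensity. Every gene whose symbol begins with Slc and a number was read from its probe set of highest mean among those with a single gene symbol, and kept if its mean over the 6 arrays was at least 50. Of 347 Slc genes with such a probe set, 156 were kept, 185 had a mean under 50, and 6 that reached 50 were left out of the set by name, among them the melanosomal carrier Slc45a2 and the glucose transporters Slc2a1 and Slc2a3. The same reading gave 18194 genes on the array, of which 9729 reached 50. The mean of all 6 arrays chose the members, so being well measured is a property of the choice and not a result. Mean intensities of the members ran from 50.9 to 7980, with a median of 169. The genes just inside the limit were Slc7a4 (50.9), Slc25a29 (51.2) and Slc24a3 (52), and those just outside were Slc16a6 (49.8), Slc35f6 (48.1) and Slc9a5 (48.1).

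The optic fissure, a groove along the underside of the optic cup, must close for the eye to become round, and it was cut out by laser-assisted microdissection. Each of the 6 samples was hybridised to 1 Affymetrix array. The 3 control samples carried the genotype Six3Cre-;Fgfr1fx/fx;Fgfr2fx/fx and the 3 FGFR mutant samples Six3Cre+;Fgfr1fx/fx;Fgfr2fx/fx, so both groups had loxP-flanked alleles of the FGF receptor genes Fgfr1 and Fgfr2 on the C57BL/6J strain and differed in the Cre transgene. Six3Cre acts in the early eye field and ventral forebrain, so cells outside that field, such as periocular mesenchyme, blood and vessels, are not its target. The targeted genes themselves read 89.8 to 247 in the controls and 59.9 to 141 in the mutants for Fgfr1, and 314 to 474 and 870 to 1316 for Fgfr2, but where these probes lie relative to the floxed exons was not analysed here, so they do not check the genotypes. The numbers 8711, 9216 and 9266 each name 1 control and 1 mutant array. Whether a group's samples were separate embryos or pools is not in the labels. The p-values therefore measure only the spread between samples, which may be technical, and 3 arrays per group limit the precision of every difference.

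Solute carriers are membrane proteins that move small molecules by facilitated diffusion, by exchange, or by coupling to gradients of sodium, protons or other ions. Cells use them to import amino acids, sugars, vitamins and metals, to set pH and volume, and to load mitochondria, lysosomes and the Golgi apparatus with substrate. In the eye, epithelial carriers for bicarbonate, sodium and chloride move fluid, and the pigment epithelium later controls which nutrients reach the retina. An intensity depends on the probe set as well as on the RNA, so levels are compared between groups and not between genes. In bulk tissue, fewer cells of a type and less RNA per cell cannot be told apart.

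The arrays were not of equal quality. In mutant 8711 the 3 prime Gapdh control probe set read 93.6 times its 5 prime one, compared with 4.26 to 15 times elsewhere. That array had a median intensity of 18.1 against 28.7 to 34.6, and a mean correlation with the other arrays of 0.836 against 0.917 to 0.932. It held the lowest value of 48 members (30.8%), beside 26.2% of all genes with a mean of at least 50. It also held the highest value of 40 members (25.6%), beside 34.5% of those genes, so it was extreme in both directions. Mutant 9266 held the highest value of 52 members (33.3%), beside 19.8% of those genes. Its median member stood 0.20 above the mean of the 3 controls on the log2 scale, beside 0.05 for those genes. The marker genes of cell types also differed between the groups. The summed intensity of pigment epithelium markers ran from 15347 to 17890 in the controls and from 25094 to 40867 in the mutants, with 15 of 16 tested markers higher, while Rpe65, Ttr, Best1 and Lrat were too dim to test. Dct and Pmel, its brightest markers, had log2 differences of 1.09 and 0.12. Neural retina progenitor markers summed to 7382 to 9551 in the controls and 4071 to 5235 in the mutants. Of 11 tested markers 10 were lower, a count that takes in Lhx2 at 0.00. Their brightest, Sfrp2 and Sox2, had differences of -1.36 and -0.99. The 1 higher, Rlbp1 (1.21), was also on the pigment list. The 1 lower pigment marker, Crybb1 (-0.45), was also on the lens list. Both groups thus held the markers of the optic cup. Periocular mesenchyme markers summed to 1203 to 2497 and 2935 to 3635, with 13 of 13 higher (brightest Col3a1 at 0.57 and Lum at 0.96). Macrophage markers summed to 1757 to 2533 and 2785 to 3507, with 9 of 13 higher (Csf1r at 0.49 and C1qb at 0.85). Neuron markers summed to 439 to 888 and 311 to 398, with 8 of 8 lower (Syt1 at -0.06 and Atoh7 at -2.51) and Dcx and Stmn2 too dim to test. Erythroid markers summed to 13383 to 17876 and 17129 to 18453, with 7 of 7 higher (Hbb-y at 0.04 and Hbb-bh1 at 0.48). Endothelial markers summed to 439 to 842 and 357 to 688, with 5 of 11 higher (Kdr at -0.95 and Cldn5 at -0.32). Lens and surface ectoderm markers summed to 1592 to 2080 and 858 to 3777, with 3 of 8 higher (Cryba1 at -0.28 and Krt18 at 1.47) and Foxe3 too dim to test. The part of these shifts in the differences of single carriers was not tested.

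Across the 156 genes the mutants and controls were close. In the mutants 81 members were higher and 75 lower, and the median log2 difference was 0.03. The 9727 genes with a mean of at least 50 that entered the fit were 52.1% higher and 47.9% lower, with a median of 0.02. A total of 67 members (42.9%) differed by less than 0.2 on the log2 scale, beside 42.9% of those genes. No member passed an adjusted p of 0.05 in limma, where 0% of all 27022 probe sets tested passed, and the smallest adjusted p of a member was 0.472. The unadjusted limma p was under 0.05 for 11 members (7 higher and 4 lower), which is 7.05% of the members beside 7.29% of genes with a mean of at least 50. By direction the background was 4.57% higher and 2.71% lower. Control and mutant values did not overlap in 22 members (15 higher and 7 lower), or 14.1%, beside 14.8% of the same genes, 9.21% higher and 5.6% lower. A log2 difference of at least 1 was seen in 3 members and of -1 or less in 4, beside 1.82% and 3.27% of those genes. All of these shares were near the background.

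The count at an unadjusted p depended on single arrays. Of the higher members it was 3 (1.92%) without control 8711, 4 (2.56%) without control 9266 and 13 (8.33%) without mutant 9216, beside 2.37%, 2.66% and 4.85% of genes with a mean of at least 50. Of the lower members it was 1 (0.641%) without control 8711, 1 (0.641%) without control 9266 and 7 (4.49%) without mutant 8711, beside 1.07%, 1.04% and 4.49% of those genes. The background thus moved with the same arrays. With 1 array of the 6 left out, between 19 and 29 members (12.2% to 18.6%) were higher and between 8 and 22 (5.13% to 14.1%) lower without overlap, beside 11.3% to 17% and 6.92% to 15.3% of those genes, with the smaller group easier to separate. The split by direction turned with single arrays too. Without mutant 9266, 68 members (43.6%) were higher and 88 lower, with a median of -0.05, beside 52.3% higher of those genes, and without control 9216 it was 75 (48.1%) and 81, beside 47.1%. In all, 76 members changed sign with 1 array or another left out, and 139 changed sign or moved by over 1.5 times. A difference near 0 can meet these measures easily, as Slc20a1 did at -0.04 with a range of -0.07 to 0.00. The counts were not made over all genes, so they cannot be read as a trait of the members. Of the 11 members with an unadjusted limma p under 0.05, 0 changed sign and 2 moved that far. Those 11 were picked on the same arrays for a large difference relative to its spread, so their stability is no contrast. When each array was centred on its median, 97 members (62.2%) were higher, with a median of 0.14, beside 63.8% and a median of 0.13 for all genes with a mean of at least 50. Quantile normalization gave 90 higher (57.7%), beside 55.5%.

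**Figure D1:**
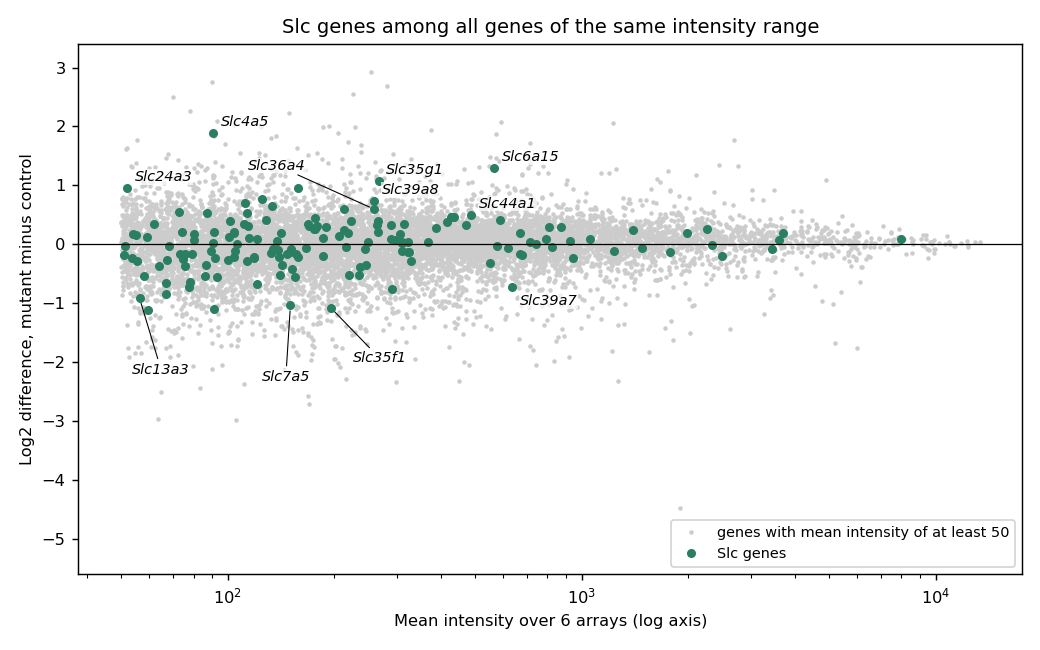
Log2 difference, mutant minus control, against mean intensity over the 6 arrays (log axis) for all genes with a mean intensity of at least 50 (grey) and the 156 Slc genes (green); the 11 with an unadjusted limma p under 0.05 are named. The Slc genes lie within the cloud of other genes, with Slc4a5 highest at 1.88.

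The members are taken in turn by what they carry. They come in 9 substrate groups set by Slc family number, plus 5 genes that bear the prefix but are not carriers. No group had more than 2 members higher, or more than 1 lower, at an unadjusted limma p under 0.05.

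**Figure D2:**
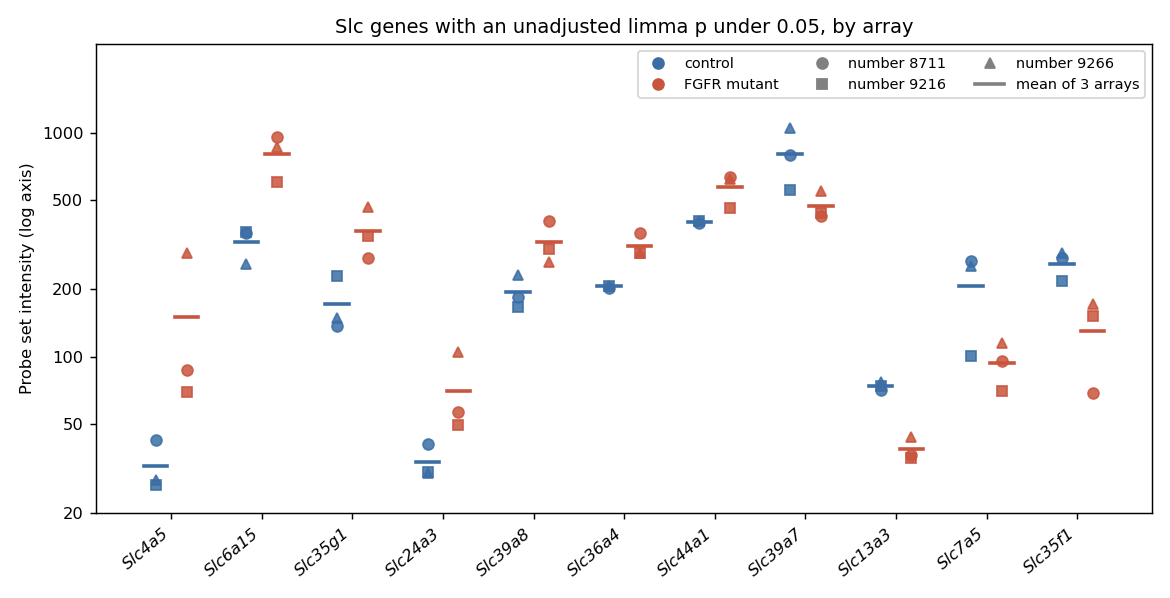
Probe set intensity (log axis) in each array for the 11 Slc genes with an unadjusted limma p under 0.05, controls in blue and FGFR mutants in red, with the symbol giving the array number and the bar the mean of 3 arrays. Groups do not overlap in 10 of the 11, and in Slc7a5 control 9216 (100) falls below mutant 9266 (115).

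Among the 18 carriers of inorganic ions, 10 were higher and 8 lower, the median difference was 0.08 (-0.14 without control 9216 and -0.03 with array weights), and the unadjusted p was under 0.05 for 2 higher and 0 lower members. The widest difference of any member was in Slc4a5, which encodes an electrogenic sodium bicarbonate cotransporter of secretory epithelia such as the choroid plexus. Its intensities were 42.2, 26.7 and 28.2 in controls 8711, 9216 and 9266, and 87.4, 69.7 and 292 in the mutants in the same order. Each mutant array was above every control array, and mutant 9266 was far above the other mutants. The control mean was 32.4 ± 8.55 and the mutant mean 150 ± 123 (SD, n = 3 each), for a log2 difference of 1.88 (SE 0.56, limma adjusted p = 0.709). Without mutant 9266 the difference was 1.26, and the unadjusted p stayed under 0.05 in every alternative fit. Its control mean lay under 50, so it became a member only through its mutant values, and its separation is in part a property of the choice.

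Slc24a3, a potassium-dependent sodium-calcium exchanger, had 40.6, 30.4 and 30.2 across the controls and 56.6, 49.4 and 105 across the mutants, by the same array order. The groups did not overlap, and mutant 9266 was again the highest. With a control mean of 33.7 and a mutant mean of 70.2, it too passed the limit of 50 only through the mutants. The log2 difference was 0.96 (SE 0.38, limma adjusted p = 0.852), and 0.64 without mutant 9266. It was 1.09 without control 8711 and 0.89 without control 9216 or 9266, and without any of these 4 arrays its unadjusted p was above 0.05. Slc4a4, the gene of the other electrogenic bicarbonate cotransporter, had 92.1, 80.9 and 76.7 across the controls and 134, 102 and 186 across the mutants. All mutant arrays lay above all controls, with a difference of 0.71 (SE 0.30), while its dimmer probe sets had 0.37, -0.67 and -0.92.

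The remaining ion carriers had overlapping groups. Slc20a1, a phosphate importer and the ion carrier whose probe set had the highest mean, had 823, 815 and 872 across the controls and 846, 823 and 767 across the mutants, a difference of -0.04 (SE 0.16). It had the smallest spread within groups of all members, with an SD of 0.06 on the log2 scale. Slc12a2, the sodium-potassium-chloride cotransporter of secretory epithelia, had means of 735 ± 78.8 and 746 ± 140 (SD, n = 3 each), which differed by 0.01, with dimmer probe sets at -0.99 and -0.28. Slc4a2, an anion exchanger, ran from 137 to 412 in the controls and from 190 to 959 in the mutants, where mutant 9266 was the high value, with a difference of 0.28 (SE 0.72). The lowest difference in this group was that of Slc9a8, a sodium-proton exchanger of the Golgi and endosomes, at -0.85 (SE 0.58), or -0.26 without mutant 8711, where it read 18.2, and -1.40 without mutant 9216. Slc12a7, a potassium-chloride cotransporter, had -0.76, or -0.14 without mutant 8711 and -1.19 without mutant 9266.

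The next group held Slc6, the family of the neurotransmitter carriers, with vesicular and lysosomal relatives. Its name is that of the family, and members such as Slc6a15 and Slc6a8 carry other substrates. Of 7 members 5 were higher, with a median of 0.14 that was -0.07 without mutant 9266 and 0.00 with the mean of all probe sets. Slc6a15, a sodium-coupled carrier of branched-chain amino acids and proline known from neurons, had the smallest p of all members. It had 357, 360 and 259 in controls 8711, 9216 and 9266, and 956, 604 and 861 in the mutants in the same order. The lowest mutant was well above the highest control. The control mean was 325 ± 57.4 and the mutant mean 807 ± 182 (SD, n = 3 each), for a log2 difference of 1.30 (SE 0.25, limma adjusted p = 0.472). With 1 array left out the difference stayed between 1.14 and 1.49, and the unadjusted p was under 0.05 in every alternative fit. Neuron markers were lower in the mutants, 8 of 8, and their part in this value was not tested.

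Slc6a6, the taurine transporter, had 179, 198 and 168 across the controls and 91.4, 235 and 368 across the mutants. Mutant 8711 was below and the other mutants above the controls. The difference was 0.14 (SE 0.49), or 0.69 without mutant 8711. Slc18b1, a vesicular polyamine carrier, did not overlap, with 90.2, 93.3 and 110 across the controls and 141, 118 and 113 across the mutants, a difference of 0.34 (SE 0.24). The others were close to 0: the creatine carrier Slc6a8 had -0.12, the glycine carrier Slc6a9 -0.17, the sialic acid exporter Slc17a5 0.19 and Slc6a17 0.09.

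Among the 24 amino acid and peptide carriers, 11 were higher, with a median of -0.01, and the unadjusted p was under 0.05 for 1 higher and 1 lower member. Slc7a5 is the light chain of the exchanger that brings large neutral amino acids such as leucine into growing cells. It had 268, 100 and 254 across the controls and 95.3, 69.9 and 115 across the mutants. The groups overlapped, since control 9216 lay between the mutants, while the other controls were well above every mutant. Means were 207 ± 92.8 in controls and 93.3 ± 22.5 in mutants (SD, n = 3 each), for a log2 difference of -1.04 (SE 0.44, limma adjusted p = 0.852). Without control 8711 it was -0.79, without mutant 9216 -0.85, without control 9266 -0.83 and without mutant 9266 -1.20, and in each of these limma p was above 0.05, as it was with median centring and quantile normalization. The heavy chain that this exchanger needs to reach the membrane, Slc3a2, had 545, 444 and 498 across the controls and 649, 512 and 869 across the mutants. Its groups overlapped at control 8711 and mutant 9216, with a difference of 0.42 (SE 0.24), or 0.22 without mutant 9266, in the opposite direction to the light chain.

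Slc36a4, a carrier of proline and tryptophan, had 203, 207 and 207 across the controls and 357, 291 and 292 across the mutants. The controls were nearly equal and all mutants stood above them. The log2 difference was 0.59 (SE 0.20, limma adjusted p = 0.801). It was 0.58 without control 8711 and 0.60 without control 9266, where the unadjusted p was above 0.05, as it was with median centring (0.71).

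The amino acid carriers with the highest intensities were steady. Slc38a2, a sodium-coupled importer of neutral amino acids, had 2139, 2385 and 2498 across the controls and 2668, 2145 and 2153 across the mutants, a difference of -0.02 (SE 0.15). Slc38a1, its close relative, had means of 1519 ± 228 and 1440 ± 31.2 (SD, n = 3 each), which differed by -0.07. The cationic amino acid importer Slc7a1 had 342, 613 and 323 across the controls and 430, 589 and 526 across the mutants, with overlap and a difference of 0.32 (SE 0.30). The neutral amino acid exchangers Slc1a4 and Slc1a5 had -0.36 and -0.13. Slc1a4 did not overlap, with 62.8 to 85.7 in the controls and 44 to 62 in the mutants, and Slc43a2, a leucine carrier, did not overlap in the other direction, with 53.6 to 55.4 and 59.9 to 79.0 (0.34). Some members swung with single arrays. Slc15a2, a proton-coupled peptide carrier, had 171, 163 and 13 across the controls and 437, 81.6 and 80.5 across the mutants, a difference of 0.95 (SE 1.12), or 0.15 without mutant 8711 and -0.23 without control 9266. Slc38a3, a glutamine carrier, had 232, 109 and 350 across the controls and 34.7, 160 and 523 across the mutants, a difference of -0.52 (SE 0.96), or 0.48 without mutant 8711 and -1.45 without mutant 9266.

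Of 14 carriers of sugars, monocarboxylates and other small organic solutes, 8 were higher, with a median of 0.10. Slc13a3, a sodium-coupled importer of dicarboxylates such as succinate, was the most evenly separated of the members with lower values. It had 70.7, 74.3 and 77.0 across the controls and 36.5, 35.4 and 43.9 across the mutants. Both groups were tight and the highest mutant was well below the lowest control. The control mean was 74.0 ± 3.16 and the mutant mean 38.6 ± 4.62 (SD, n = 3 each), for a log2 difference of -0.91 (SE 0.27, limma adjusted p = 0.688). It stayed between -1.01 and -0.86 with 1 array left out. With median centring it was -0.80 and with quantile normalization -0.76, and the unadjusted p was then just above 0.05. Its dimmer probe sets had -1.15 (SE 0.70) and -0.81 (SE 0.79), the same direction. Slc13a3 passed the limit of 50 only through the controls. In all, 5 members had 1 group with a mean under 50 (Slc4a5, Slc24a3, Slc13a3, Slc46a1 and Slc7a4), and 3 of them are among the 11 with an unadjusted p under 0.05.

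Slc16a1, the lactate and pyruvate carrier of proliferating cells, had 1028, 1063 and 946 across the controls and 908, 717 and 986 across the mutants, overlapping, with a difference of -0.23 (SE 0.19). Its membrane chaperone basigin, Bsg, had a difference of -0.27 (SE 0.41), or 0.17 without mutant 8711. Slc5a3, the sodium-coupled importer of the osmolyte inositol, had 1778, 2303 and 1458 across the controls and 2062, 1909 and 1141 across the mutants, a difference of -0.14 (SE 0.28). Its dimmer probe sets had -1.51 (SE 1.11) and -1.35 (SE 1.56). Slc23a2, which imports vitamin C, did not overlap, with 119 to 170 in the controls and 182 to 195 in the mutants, a difference of 0.31 (SE 0.24). The sugar carriers Slc2a8, Slc2a12, Slc2a4 and Slc50a1 had -0.36, 0.03, 0.20 and 0.30, all with overlapping groups. The inositol carrier Slc2a13 had 0.40, also with overlap.

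Metal carriers split by direction, with 10 of 21 higher and a median of -0.07 that was 0.04 with median centring. The 2 with an unadjusted limma p under 0.05, 1 in each direction, were zinc carriers. Slc39a8, which imports zinc and manganese, had 184, 166 and 232 across the controls and 406, 304 and 266 across the mutants. The groups did not overlap and mutant 8711 was the highest. Means were 194 ± 33.8 in controls and 325 ± 72.7 in mutants (SD, n = 3 each), for a log2 difference of 0.73 (SE 0.26, limma adjusted p = 0.836). It was 0.70 without control 8711, 0.63 without control 9216 and 0.84 with median centring, each with an unadjusted p above 0.05. Slc39a7, which releases zinc from the endoplasmic reticulum, had 793, 559 and 1053 across the controls and 426, 441 and 550 across the mutants. Mutant 9266 came within a few units of control 9216 without crossing it. The control mean was 802 ± 247 and the mutant mean 472 ± 67.8 (SD, n = 3 each), for a log2 difference of -0.72 (SE 0.27, limma adjusted p = 0.852). It was -0.50 without control 9266, -0.71 without control 8711, -0.65 without mutant 8711 and -0.68 without mutant 9216, each with an unadjusted p above 0.05.

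At their brightest probe sets, the zinc importers with the highest intensities did not separate the groups. Slc39a10 had 2344, 3454 and 2155 across the controls and 1951, 3246 and 1836 across the mutants, with both 9216 arrays highest. Slc39a10 thus had a difference of -0.20 (SE 0.28), while its dimmer probe set had -1.46 (SE 0.71). Slc39a6, its partner in heteromers, had 1975, 2044 and 2085 across the controls and 3206, 2270 and 1989 across the mutants, a difference of 0.26 (SE 0.20), while its dimmer probe sets had -1.22 and -1.85. Slc39a14, a zinc, manganese and iron importer, did not overlap, with 117 to 134 in the controls and 97.4 to 105 in the mutants, a difference of -0.29 (SE 0.23), and a dimmer probe set had 0.22. The copper importer Slc31a1 had 645, 569 and 597 across the controls and 359, 564 and 564 across the mutants. Mutant 8711 stood apart, and the difference of -0.31 was -0.10 without it. The zinc exporters of Slc30 that were members, Slc30a1, Slc30a4, Slc30a5, Slc30a6, Slc30a7 and Slc30a9, ran from -0.13 to 0.47, each with overlapping groups. Slc11a1, a divalent metal carrier of macrophage phagosomes, had 102, 69.8 and 68.2 across the controls and 71.3, 105 and 331 across the mutants, a difference of 0.77 (SE 0.57). It was 1.23 without mutant 8711 and 0.14 without mutant 9266, whose 331 was the one high value. The macrophage list was mixed: 9 of its 13 genes had differences above 0, 4 of these at an unadjusted limma p under 0.05, and 4 below 0, among them C1qa at -0.42 and Cx3cr1 at -0.86. The part of these cells in the value was not tested.

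The mitochondrial carriers of Slc25 formed the largest group, with 33 members, 19 higher and a median of 0.07, and none was under an unadjusted limma p of 0.05. The group holds the exchangers that feed and empty the matrix. Slc25a3, the phosphate carrier for ATP synthesis, had 7388, 8181 and 7559 across the controls and 8283, 8958 and 7513 across the mutants, a difference of 0.10 (SE 0.11). The ADP/ATP exchangers Slc25a5 and Slc25a4 had 0.18 (SE 0.13) and -0.07 (SE 0.16). For Slc25a5 the values were 3718, 3171 and 3530 across the controls and 3887, 3701 and 4242 across the mutants, overlapping only at control 8711 and mutant 9216. Slc25a39, which brings glutathione into mitochondria, had 4138, 2074 and 4342 across the controls and 4910, 2257 and 3904 across the mutants. Both 9216 arrays were low and the groups overlapped, with a difference of 0.07 (SE 0.39). The dimmer probe sets of Slc25a39 ran from -1.21 to 0.25.

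The mitochondrial members without overlap were Slc25a20, Slc25a32 and Slc25a27. Slc25a20, the carnitine-acylcarnitine exchanger of fatty acid oxidation, had 755, 703 and 713 across the controls and 796, 900 and 976 across the mutants, a difference of 0.29 (SE 0.17). Slc25a32, a carrier of folate and flavin, had 50.5, 55.1 and 71.3 across the controls and 97.7, 76.6 and 85.4 across the mutants, a difference of 0.55 (SE 0.28), and its other tested probe set had 0.19. Slc25a27, a neural uncoupling-protein relative, had 107, 124 and 120 across the controls and 18.7, 76.0 and 103 across the mutants. Mutant 8711 was far the lowest array, and the difference was -1.11 (SE 0.61) and -0.39 without that array, and a dimmer probe set had 0.51. Slc25a44, a branched-chain amino acid carrier, read 1.6 in mutant 8711, against 88.1 and 76.2 in the other mutants and 36.7 to 79.4 in the controls. Its difference of -1.12 (SE 1.26) became 0.43 without that array, and its dimmer probe sets had 0.34 and 0.11. Slc25a30 likewise read 9 in mutant 8711, and its difference of -0.03 became 1.11. The iron importers Slc25a37 and Slc25a28 had 0.07 and 0.19, and Slc25a38, which supplies glycine for haem, had -0.67 (SE 0.39), or -0.38 without mutant 8711.

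**Figure D3:**
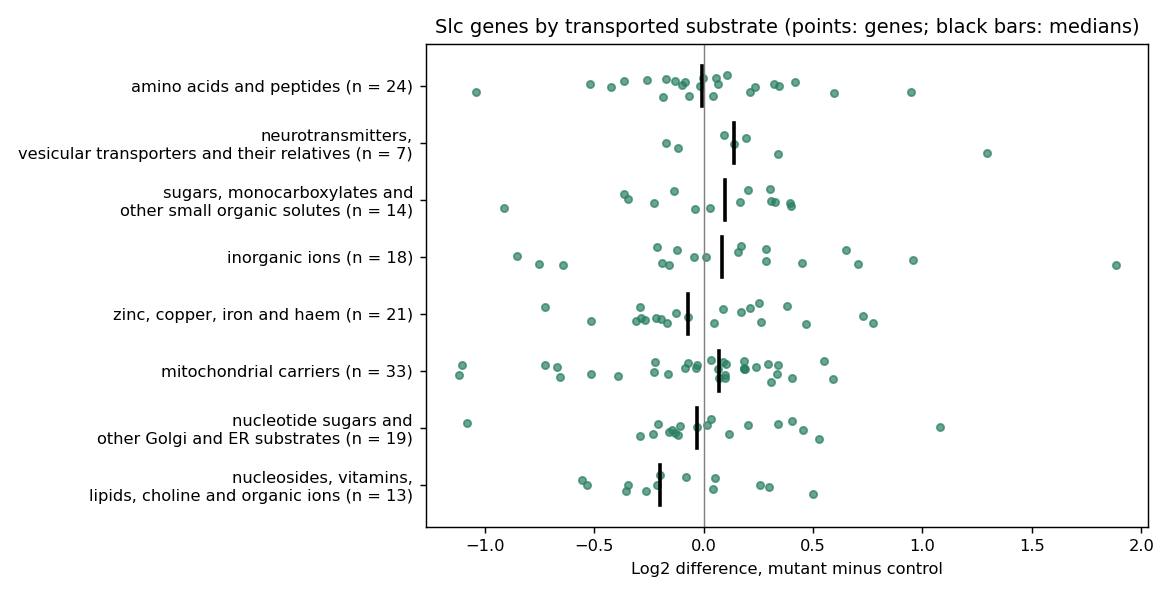
Log2 difference, mutant minus control, of each Slc gene, sorted by what its family carries (points are genes, black bars the group medians). The 8 groups drawn leave out the lysosomal Slc66 genes and those that are not carriers; their medians run from -0.20 for nucleosides, vitamins and lipids to 0.14 for the neurotransmitter group (-0.07 without mutant 9266), and each of them has points on both sides of 0.

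The Golgi and endoplasmic reticulum carriers, most of them in Slc35, bring in nucleotide sugars and related donors for glycosylation and sulphation. Of 19 members 9 were higher, with a median of -0.03, and its outermost members were poorly characterised proteins. Slc35g1 had 137, 229 and 149 across the controls and 276, 346 and 468 across the mutants. Every mutant was above every control, with mutant 9266 highest. Group means were 172 ± 50.4 in controls and 364 ± 97.6 in mutants (SD, n = 3 each), for a log2 difference of 1.08 (SE 0.31, limma adjusted p = 0.667). It stayed between 0.88 and 1.30 with 1 array left out. Slc35f1 had 275, 218 and 289 across the controls and 68.5, 151 and 172 across the mutants. All mutants were lower and mutant 8711 was lowest. The log2 difference was -1.08 (SE 0.38, limma adjusted p = 0.836), or -0.68 without mutant 8711. It was -1.04 without control 8711 and -1.0 without control 9266, where the unadjusted p was above 0.05, and -0.55 with the mean of all its probe sets.

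The nucleotide sugar carriers of known substrate were close to 0 or overlapped. Slc35a1, which carries CMP-sialic acid, had 1289, 1139 and 1337 across the controls and 1739, 1003 and 897 across the mutants, a difference of -0.11 (SE 0.27). Slc35b2, the carrier of the sulphate donor PAPS that heparan sulphate synthesis needs, had 142, 143 and 159 across the controls and 157, 89.5 and 148 across the mutants, a difference of -0.21 (SE 0.29). The UDP-galactose carrier Slc35a2 had 0.20 and its dimmer probe sets ran from -1.06 to 0.58. Slc35d1, a carrier of UDP-sugars for chondroitin sulphate, had 81.8, 86.9 and 97.2 across the controls and 211, 87.7 and 114 across the mutants, with a difference of 0.53 (SE 0.36), or 0.17 without mutant 8711. Slc35f5, another poorly characterised member, did not overlap, with 340 to 368 in the controls and 404 to 604 in the mutants, a difference of 0.45 (SE 0.21).

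Carriers of nucleosides, vitamins, lipids, choline and organic ions had the lowest group median, -0.20, with 5 of 13 higher, and -0.01 without mutant 8711. Slc44a1, a choline carrier for membrane phospholipid synthesis, had 397, 402 and 403 across the controls and 636, 460 and 624 across the mutants. The controls were nearly identical and all mutants were above them. The log2 difference was 0.50 (SE 0.20, limma adjusted p = 0.852), and it was the least stable of the 11, with p above 0.05 without any 1 of the arrays except mutant 9216. Its other tested probe set had 0.28, the same direction. Taking the mean of all 4 of its probe sets, those too dim to test included, gave -0.15. Slc44a2, its relative, had 762, 613 and 900 across the controls and 1549, 724 and 696 across the mutants, a difference of 0.30 (SE 0.35) that was -0.08 without mutant 8711. The folate carriers Slc19a1 and Slc46a1 had 0.04 and -0.53 (SE 0.35), the latter -0.80 without mutant 9266, and the carnitine importer Slc22a5 had 0.26, all with overlapping groups. The fatty acid importer Slc27a4 had -0.56 (SE 0.37), also overlapping, with -0.25 without mutant 8711, where it read 46.8, and -0.87 without mutant 9266. The lysosomal pair, Slc66a1 and Slc66a2, had 0.19 and 0.12, a median of 0.15, and both were below 0 without mutant 9266 (-0.02 and -0.09) or without control 9216 (-0.04 and -0.02).

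Genes that share the prefix without being carriers were also read. The scaffold genes Slc9a3r1 and Slc9a3r2, whose products tether ion exchangers to the cytoskeleton, had -0.56 (SE 0.49) and 0.52 (SE 0.41), both overlapping. Single arrays moved both. Slc9a3r1 had -1.01 without mutant 8711, where its unadjusted p was under 0.05, -0.14 without mutant 9216 and -0.36 without control 9266, and Slc9a3r2 had 0.23 without mutant 8711 or without control 9216. Slc7a6os had 154, 161 and 159 across the controls and 172, 175 and 237 across the mutants, without overlap, and a difference of 0.28 (SE 0.23). Slc4a1ap and Slc2a4rg-ps had -0.06 and -0.54.

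Promoters are shown for the members whose groups were tight or widest apart and for which a start site was found. RefSeq windows on build GRCm38.p6, each from 250 bases before to 50 after a start, were found for 122 of the 156 members, 157 windows in all, and for 9 of the 11 members above. The 250 bases before the start are printed 5′ to 3′ along the gene for Slc4a5 (chr6:83237125-83237374, + strand), which had the widest difference, Slc35g1 (chr19:38395730-38395979, + strand), also higher, and Slc13a3 (chr2:165473198-165473447, - strand), which was lower. Capitals mark matches to an E-box (CACGTG, the same on both strands), to an M-box core (CATGTG, or CACATG on the other strand), a word that factors of the Mitf family bind, and to a GC box (GGGCGG, or CCGCCC on the other strand). No matches overlapped in these stretches.
Slc4a5: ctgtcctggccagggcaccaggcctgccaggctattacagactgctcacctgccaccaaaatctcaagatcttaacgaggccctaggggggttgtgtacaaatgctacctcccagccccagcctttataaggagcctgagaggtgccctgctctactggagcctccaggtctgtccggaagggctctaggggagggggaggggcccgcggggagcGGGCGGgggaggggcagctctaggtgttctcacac
Slc35g1: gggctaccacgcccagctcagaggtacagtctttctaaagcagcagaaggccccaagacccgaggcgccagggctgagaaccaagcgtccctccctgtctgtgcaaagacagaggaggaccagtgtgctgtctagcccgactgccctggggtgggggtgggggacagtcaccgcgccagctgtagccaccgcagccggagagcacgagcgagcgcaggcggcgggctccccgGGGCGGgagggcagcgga
Slc13a3: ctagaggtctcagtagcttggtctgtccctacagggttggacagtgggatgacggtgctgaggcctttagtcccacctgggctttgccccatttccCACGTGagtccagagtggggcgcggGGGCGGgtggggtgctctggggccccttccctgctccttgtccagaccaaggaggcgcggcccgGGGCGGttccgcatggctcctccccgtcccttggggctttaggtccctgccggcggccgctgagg

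The Slc4a5 and Slc35g1 stretches each held 1 GC box, starting at -35 and -18 from the start site, and Slc13a3 held GC boxes at -129 and -65 and an E-box at -154. None held an M-box core. Over the whole 300-base windows, the E-box was in 25 of the 157 member windows (15.9%), beside 10.3% of windows of genes with a mean of at least 50 and 7.15% of all windows. The M-box core was in 8 (5.1%), beside 7.96% and 14.2%, and the GC box in 117 (74.5%), beside 64.3% and 35.7%. Among the 12 windows of the members with an unadjusted p under 0.05, 2 held an E-box (16.7%), 10 a GC box (83.3%) and 0 an M-box core. A match is a run of letters and not a bound site.

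Spread within groups was similar in carriers and other genes. The median SD on the log2 scale was 0.35 for members, beside 0.34 for genes with a mean of at least 50, and it was 0.25 among the controls and 0.42 among the mutants. The median SE of a member's difference was 0.30. The mutant 8711 array moved the difference of 13 members by more than 0.5, and 30 members changed sign without it. Neither count was made over the other genes. Without mutant 8711, 89 members (57.1%) were higher and 67 lower, beside 49.5% higher of genes with a mean of at least 50. The unadjusted limma p was then under 0.05 for 10 higher and 7 lower, beside 5.27% and 4.49% of those genes. The spread is seen in single genes: Slc4a3, an anion exchanger, read 25.4 in that array against 117 and 184 in the other mutants, and its difference went from -0.21 to 0.61. Of 71 members with more than 1 tested probe set, 39 had a probe set of opposite sign, a count not made over the other genes. The sign could thus depend on the probe set, also for a wide difference such as that of Slc25a27 (-1.11 and 0.51).

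**Figure D4:**
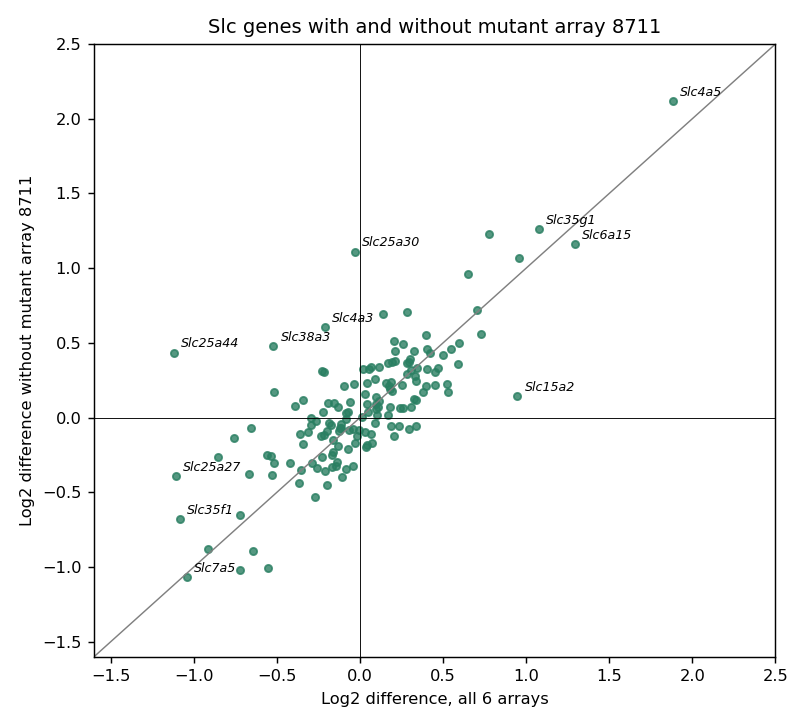
Log2 difference, mutant minus control, of each Slc gene from all 6 arrays (horizontal axis) and without mutant array 8711 (vertical axis), with the line of equality. Slc4a5, Slc35g1 and Slc6a15 stay near the line, while Slc25a44 moves from -1.12 to 0.43 and Slc15a2 from 0.95 to 0.15.

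Other transport genes, grouped in lists by function, give the setting of the carriers. The partners of carriers were chaperones, sodium pump subunits, carbonic anhydrases, regulating kinases, Tfrc and the scaffold genes Slc9a3r1 and Slc9a3r2, which are also members. Of 17 tested partners, 10 were higher, with a median of 0.03, and 1 was higher at an unadjusted limma p under 0.05. It was Ostm1, the subunit of the lysosomal chloride exchanger, with 650, 608 and 707 across the controls and 1170, 976 and 972 across the mutants, a difference of 0.66 (SE 0.18). Of 28 ATP-driven ABC and organic anion (Slco) carriers, 13 were higher, with a median of -0.06, or 0.06 without mutant 8711, and 2 higher and 1 lower at that level. Abca1, a cholesterol exporter, had 380, 259 and 295 across the controls and 686, 764 and 890 across the mutants, without overlap, a difference of 1.33 (SE 0.22, limma adjusted p = 0.399). Abcc4, an exporter of cyclic nucleotides and prostaglandins, had 0.71 (SE 0.28) and Abca5 -0.73 (SE 0.25), or -0.49 without mutant 9266. Of 11 chloride and water channel genes, 7 were higher, with a median of 0.11 that was -0.05 without mutant 9266 and -0.13 with array weights. Clic6, a chloride channel family gene, had 95.1, 98.1 and 80.2 across the controls and 200, 129 and 254 across the mutants, a difference of 1.03 (SE 0.31), and the aquaporin Aqp11 had -0.95 (SE 0.39), or -0.58 without mutant 9266. With single arrays left out the unadjusted p rose above 0.05 for Abcc4 (any array but mutant 9216, 0.50 to 0.75), for Abca5 (controls 8711 and 9266, -0.72 and -0.65) and for Aqp11 (mutant 9266 and each control, -1.10 to -0.58).

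Several amino acid carriers, Slc7a5 and Slc3a2 among them, are known targets of the stress factor Atf4, so its other targets were read beside them. Of 23 genes tested, Atf4 itself included, 9 were higher, with a median of -0.06 (0.05 with median centring). The unadjusted limma p was under 0.05 for 0 higher and 1 lower. That gene was Mthfd2, a mitochondrial folate enzyme, with 230, 222 and 223 across the controls and 32.3, 133 and 131 across the mutants, a difference of -1.42 (SE 0.55), or -0.76 without mutant 8711, where its unadjusted p stayed under 0.05; without any 1 control it was -1.43 to -1.40, with that p above 0.05. Atf4 itself had -0.59 (SE 0.34), with 257 in mutant 8711 and 633 and 506 in the other mutants, and -0.21 without that array. The targets Asns and Psat1 both had 0.12, which was -0.13 for Asns without mutant 8711 and -0.06 for Psat1 without mutant 9216.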

How the data were processed

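The deposited values are linear intensities, 1 per probe set and array, with a 2% trimmed mean of 150 on every array, so the authors had scaled them. The submitters' processing notes name MAS5; its version and settings are not given in the sources used here. Total RNA was isolated with Trizol per the labels. Values were used without further scaling as log2(intensity + 1.7), the 10th percentile of all values, which understates the change of dim genes. Of 45037 probe sets that are not controls, 27022 with a mean log2 of at least 4.07 were tested with limma 3.58.1 (lmFit and a robust eBayes fit with a trend; R 4.3.3, statmod 1.5.0), with Benjamini-Hochberg adjustment over all of them. The fit was checked on simulated data. Differences are mutant minus control. Probe sets were named from the platform annotation, and a gene was read from its brightest single-symbol probe set. Figures used Python 3.11.15 and matplotlib 3.10.9.

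Named with values by rule were members with an unadjusted p under 0.05, the brightest of each group and the 5 brightest of all, those next to the limit of 50, members with probe sets of opposite sign (a selection of them is given), partner proteins, genes of each partner or pathway list under that p, and the 2 brightest of each marker list. Other members were chosen after their values were seen. Members and lists were chosen with earlier results of these data known. Alternatives were other added values, filters, normalizations, variance models, array weights, the replicate number as a block, all probe sets averaged, other member limits, an adjusted p limit of 0.10, and arrays left out.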

Additional observations from a re-analysis of the deposited data

How the results depend on the processing

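With 3 arrays per group and a median SE of 0.30, differences of the size most members showed could not be told from the spread, and dim probe sets add error. Over 20 alternatives, 1239 values stayed on their side of the limit or, where they had no test, within the spread between arrays; 58 moved further, 46 were no longer under their limit and 1 under it reversed. Of the 1239, 107 had the opposite sign. The cause was not tested. The reversed value was Slc44a1, at -0.15 with the mean of all probe sets, which takes in those too dim to test. Slc6a15, Slc35g1 and Slc4a5 kept an unadjusted limma p under 0.05 in every alternative fit. Slc4a5, with a control mean of 32.4, was a member only through its mutant values.

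Probe sets passing an adjusted p of 0.05, 0 of 27022 in limma (1506 at an unadjusted p under 0.05), were 184 with array weights, which gave mutant 8711 a weight of 0.151, and 1 without mutant 8711 or without both 8711 arrays (0 to 1 with 1 array left out). Among members, 1 (Slc35g1, adjusted p = 0.044) passed with array weights. Members higher at an unadjusted p, 7, were 4 with median centring and 3 to 13 with 1 array left out. Members lower, 4, were 15 with array weights, 2 with the mean of all probe sets, median centring, quantile normalization, no trend, or without both 8711 arrays, and 1 to 7 with 1 array left out. Without both 8711 arrays these lower members were 1.28%, beside 1.97% of genes with a mean of at least 50. Members higher without overlap, 15, were 34 without both 8711 arrays (21.8%, beside 16.7% of genes with a mean of at least 50) and 19 to 29 with 1 left out, where fewer arrays make separation easier. Members lower without overlap, 7, were 2 with the mean of all probe sets, 4 with median centring, quantile normalization or a limit of 100, 18 of 156 without both 8711 arrays (beside 14.5% of those genes) and 8 to 22 with 1 left out.

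The median of all members, 0.03, was -0.01 with the mean of all probe sets and -0.05 to 0.07 with 1 array left out. The median of the sugar and organic acid group, 0.10, was -0.08 with array weights. That of the metal group, -0.07, was 0.01 with array weights, 0.04 with the mean of all probe sets, median centring or without both 8711 arrays, and -0.06 to 0.05 with 1 array left out. The mitochondrial median, 0.07, was 0.00 with the mean of all probe sets and 0.18 with median centring. The ABC and organic anion list, -0.06, was 0.19 without both 8711 arrays. The Atf4 list, -0.06, was -0.17 with array weights, 0.05 with median centring and -0.17 to 0.02 with 1 array left out.

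With the replicate number as a block, 0 probe sets passed, and the unadjusted p was under 0.05 for 6 higher and 4 lower members. The share of all genes at that p in the block fit is not given here. The deviations of same-numbered arrays correlated at 0.05, 0.48 and -0.11, so the numbers were not taken to pair the samples.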
